A study of Mus musculus with 12 samples.

Results

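Splicing factor genes were taken here as the protein-coding mouse genes whose symbol begins with Srsf, Hnrnp, Sf3a, Sf3b, U2af or Snrp, and their expression was followed in splenic resting B cells with and without Runx1. Of the 37991 genes in the count table, 55 met this rule, 52 under the symbol of the mm9 annotation and 3 (Hnrnpdl, Hnrnpll and Sf3b6) under a later symbol. They comprise 11 genes of SR proteins, 20 of hnRNP proteins, 9 of the SF3a and SF3b complexes, 3 of the U2AF family and 12 Snrp genes. The study sequenced poly(A) RNA from B cells purified from spleens of 8-week-old mice, with 3 replicates in each of 4 groups and 12 samples in all. Both genotypes carry the CD23-iCre transgene, in which Cre is driven by the CD23 promoter and is first made at the transitional stage of B cell development. For Cre-only mice (CD23-iCre) no other change is named, whereas Runx1 c-k/o mice (CD23-iCre/Runx1 ck/o) also carry Runx1 alleles whose exon 4 is flanked by loxP sites. Cells of each genotype were sampled at rest (0 h) and after 3 h with anti-IgM, which engages the BCR, and IL-4. No sample was cultured for 3 h without them, so anti-IgM, IL-4 and time in culture cannot be told apart. The change from 0 h to 3 h is called activation below. The sources used here do not say whether a sample held cells of 1 mouse or of several, or whether samples with the same number share an animal or a day, so the p-values measure the spread between these samples.

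Splicing removes introns from pre-mRNA in the spliceosome, which is built from small nuclear ribonucleoproteins (snRNPs) on each intron. SR proteins bind exons and promote their use, hnRNP proteins bind exons and introns and often repress nearby splice sites, U2AF recognizes the 3' splice site, and SF3a and SF3b are the parts of the U2 snRNP that hold it at the branch point. The Sm proteins encoded by most Snrp genes form the ring around the snRNA in the U1, U2, U4 and U5 particles. A lymphocyte leaving the resting state enlarges and raises transcription before it divides, and alternative splicing is known to change during lymphocyte activation, as for the membrane phosphatase CD45.

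Total counts were between 14442251 and 23641552 per sample, at which 3 counts correspond to 0.127 to 0.208 counts per 1000000 (CPM), a floor that covers counting error only. B cell markers led in all groups, with a summed level of 7984 to 19880 normalized CPM over 10 genes (counts scaled by the library size after TMM normalization). The T cell genes Cd3e, Cd3d, Cd3g, Cd8a, Cd8b1 and Thy1 each had a group mean under 1 CPM, whereas Cd4 reached 2.84 and Lck was at 31.2 to 71.0, of 8 T cell markers in all. The summed level of 5 erythroid genes was 42.0 to 294 in resting Cre-only samples and 280.4 to 475 in resting Runx1 c-k/o samples, and 14.6 to 159 and 133 to 236 after 3 h. The summed level of 10 myeloid markers fell with activation, from 270.7 to 331 in resting and 28.0 to 37.7 in activated Cre-only samples and from 237 to 462 and 31.5 to 61.8 in Runx1 c-k/o samples, led by Csf1r with group means of 185 and 6.75 in Cre-only cells; Ly6g was at 0 in 3 of the 4 groups. The sums of 5 NK cell markers (9.79 to 13.7 at rest and 1.76 to 5.14 at 3 h over both genotypes) and of 4 platelet markers (11.4 to 14.4 and 3.27 to 4.59) were also lower after 3 h. The part of these differences in the results below was not tested. The summed level of 10 B cell activation markers was 3308 to 3899 in resting and 5782 to 6509 in activated Cre-only samples. In Runx1 c-k/o samples it was 3313 to 4413 and 6532 to 7985. In both genotypes Egr1, Nr4a1 and Cd69 had a lower group mean at 3 h than at rest, and the other genes of this list a higher one. Runx1 itself was at 81.8 to 86.7 normalized CPM in resting and 34.9 to 38.5 in activated Cre-only samples, and at 95.7 to 103 and 47.3 to 74.5 in Runx1 c-k/o samples; these counts cover the whole gene and do not separate exon 4, so they do not check the deletion. A pair of libraries, Runx1 c-k/o 0 h replicate 2 and Runx1 c-k/o 3 h replicate 1, differed more from the other libraries of their group (SD over genes of the log2 difference 0.482 and 0.611) than the 6 Cre-only libraries did from theirs (0.272 to 0.334), although Runx1 c-k/o 3 h replicate 2 also reached 0.483. The same pair held the most counts on Snrp genes, at 0.0777% of all counts against 0.0543% and 0.0537% in the other resting Runx1 c-k/o libraries, and at 0.179% against 0.125% and 0.116% after 3 h. Differences between genotypes in members that these libraries lead are given with and without both.

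Most splicing factor genes rose after 3 h of activation in both genotypes. In Cre-only cells 44 of the 53 members that passed the filter on low counts were higher at 3 h and 5 were lower. Calls are at an adjusted p under 0.05, from the quasi-likelihood test of edgeR adjusted by the Benjamini-Hochberg method over 13538 genes. Over all tested genes 38.6% were higher and 36.4% lower in this comparison, against 83.0% and 9.43% of the tested members. In Runx1 c-k/o cells 45 members were higher and 5 lower (84.9% and 9.43%), where 37.7% of all genes were higher and 36.6% lower. The median log2 fold change (3 h over 0 h) of the members was 0.84 in Cre-only cells (all genes 0.03) and 0.93 in Runx1 c-k/o cells (all genes 0.005). More than a 2-fold rise was called in 19 members in Cre-only cells and 21 in Runx1 c-k/o cells, and no member fell by as much. How many of all tested genes passed these 2-fold limits was not counted. The 5 members that fell were the same in both genotypes: Srsf5, Hnrnph1, Hnrnph3, Hnrnpul1 and Sf3b1. The other 2 members, Srsf12 and Snrpn, did not pass the filter, with 0 to 11 and 0 to 6 counts per sample.

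**Figure D1:**
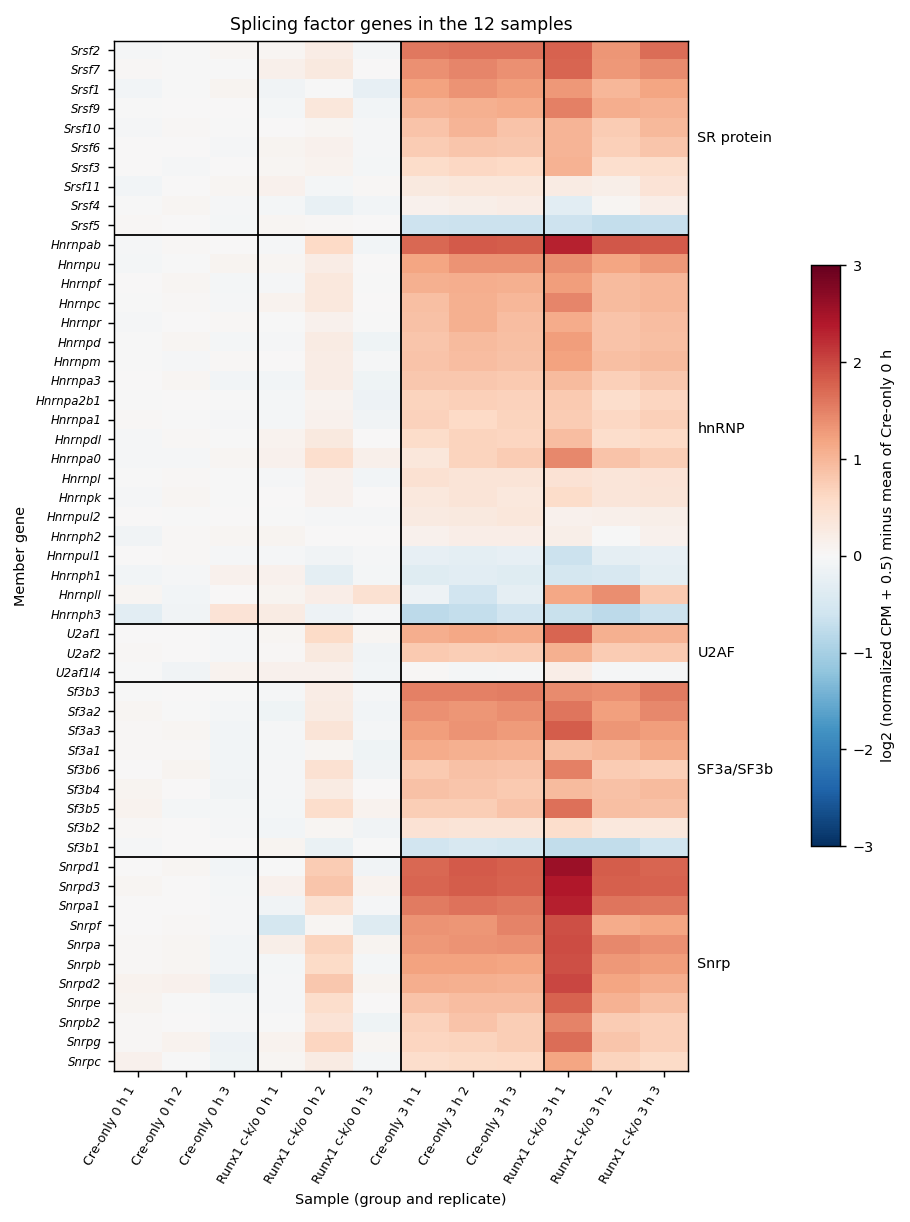
Level of the 53 tested members in each of the 12 samples, as the log2 of normalized CPM plus 0.5 minus the mean of the resting Cre-only samples, with rows ordered by family and by the change in Cre-only cells. The 6 activated samples are red for most genes and blue for Srsf5, Hnrnph1, Hnrnph3, Hnrnpul1 and Sf3b1, and Hnrnpll is red in the activated Runx1 c-k/o samples but not in the activated Cre-only samples.

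CPM values are relative to the rest of the RNA in a library, and in these bulk samples fewer cells of a type and less RNA per cell cannot be told apart. Summed over all 55 genes, the normalized CPM was 12534, 12789 and 12621 in resting Cre-only cells and 19230.1, 20029 and 19731 at 3 h, a ratio of means of 1.56. In Runx1 c-k/o cells it was 12848, 13860.3 and 12276 at rest and 22727, 18596 and 19633 at 3 h, a ratio of 1.56. The 3-h samples lay above the resting samples in both genotypes, and the highest sum in each Runx1 c-k/o group belonged to the library that stands apart. The Snrp genes rose most as a sum, 2.31-fold in Cre-only cells and 2.47-fold in Runx1 c-k/o cells (2.38-fold without both libraries that stand apart). The U2AF sum rose 1.75-fold and 1.77-fold, that of the hnRNP genes 1.58-fold and 1.59-fold, that of the SR protein genes 1.47-fold and 1.45-fold, and that of SF3a and SF3b 1.34-fold and 1.31-fold.

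**Figure D2:**
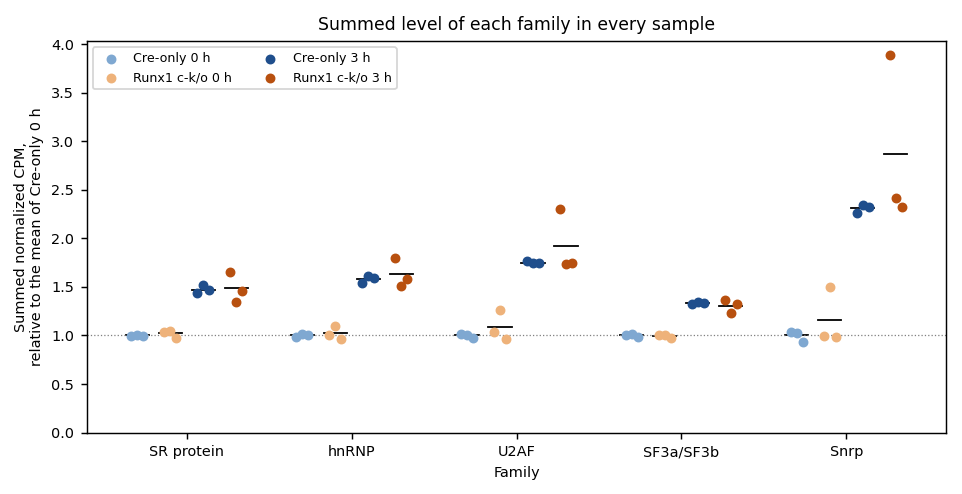
Summed normalized CPM of each family in every sample, divided by the mean of the resting Cre-only samples, with points for samples and lines for the means of 3. The Snrp sum shows the largest rise, and the highest activated Runx1 c-k/o point in each family is replicate 1.

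The size of the rise depended on the scaling. With upper-quartile in place of TMM factors the median of all genes shifted to -0.23 in Cre-only cells and -0.20 in Runx1 c-k/o cells, 36 members were higher and 7 lower in Cre-only cells, while Runx1 c-k/o cells had 42 and 5. The split over all genes then moved from 5229 higher and 4930 lower to 4141 and 6003 in Cre-only cells, and from 5110 and 4952 to 4252 and 5805 in Runx1 c-k/o cells. With 1 RUVs factor of unwanted variation in edgeR, which took values from -1.035 to -0.15 in resting and from 0.37 to 2.08 in activated samples, 33 members were higher and 2 lower in Cre-only cells, with a median of 0.43, while Runx1 c-k/o cells had 34 and 2, with a median of 0.51. Of all 13538 genes 4755 were higher and 4113 lower with this factor in Cre-only cells (median 0.05). In Runx1 c-k/o cells 4493 were higher and 4117 lower (median 0.02). Of the members called higher, 8 in Cre-only cells (Hnrnpa0, Sf3b5, Sf3b6, Snrpb2, Snrpc, Snrpd2, Snrpe and Snrpg) and 3 in Runx1 c-k/o cells (Hnrnpa0, Sf3b6 and Snrpg) had a value below 0 with this factor in edgeR or DESeq2, and Hnrnpul2 had one with upper-quartile factors in Runx1 c-k/o cells (-0.01). The change on activation fell with exon length across the 53 members, with Spearman's rho of -0.419 in Cre-only cells and -0.485 in Runx1 c-k/o cells, against -0.0197 and -0.0614 with the RUVs factor in edgeR, and -0.00915 and -0.0332 across 13514 genes without it. The median exon length was 1372 bases for the Snrp genes and 2253 to 3892 for the other families, and the part of length in their rise was not tested.

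The promoters of the members were searched for 4 words bound by ETS, MYC-type, CREB and RUNX transcription factors, since most members moved together. RefSeq promoters of GRCm38.p6, 250 bases before to 50 after each start site, were found for 48 of the 55 genes. The ETS word CCGGAAG, on either strand, was in at least 1 promoter of 33.3% of these 48 genes and of 9.93% of all 27025 genes in the table, and in 31.8% of the 66 member promoters against 8.86% of all 32851. The E-box word CACGTG was in 12.5% of the members and 8.09% of all genes, the CRE word TGACGTCA in 4.17% and 2.03%, and the RUNX word TGTGGT in 12.5% and 18.9%. The words do not overlap each other in the windows shown. Among the 38 genes with a promoter that rose in Cre-only cells 36.8% held the ETS word, as did 1 of the 5 that fell, Srsf5. These are matches of letters and not measured sites. The comparison took all 27025 genes, expressed or not, whereas 53 of the 55 members passed the filter on low counts. The shares among expressed genes were not computed. The 250 bases before the start are shown for a promoter of Snrpa, with 2 E-box words and a CRE word, for one of Hnrnpf, with a RUNX word on the minus strand and an ETS word, and for Srsf5, with ETS words on both strands; the capitals mark the words. The Snrpa window is chr7:27196272-27196521 on the minus strand, the Hnrnpf window chr6:117900090-117900339 on the plus strand and the Srsf5 window chr12:80945249-80945498 on the plus strand.
Snrpa: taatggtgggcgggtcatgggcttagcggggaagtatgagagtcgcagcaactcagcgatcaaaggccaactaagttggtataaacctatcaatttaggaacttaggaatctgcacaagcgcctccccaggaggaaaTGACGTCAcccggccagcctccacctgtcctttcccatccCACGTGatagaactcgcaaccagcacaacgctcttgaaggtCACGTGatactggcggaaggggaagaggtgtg
Hnrnpf: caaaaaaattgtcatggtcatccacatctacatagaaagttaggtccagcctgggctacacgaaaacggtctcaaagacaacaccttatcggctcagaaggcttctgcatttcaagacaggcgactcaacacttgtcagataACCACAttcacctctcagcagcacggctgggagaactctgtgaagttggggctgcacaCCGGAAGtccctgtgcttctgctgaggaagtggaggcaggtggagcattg
Srsf5: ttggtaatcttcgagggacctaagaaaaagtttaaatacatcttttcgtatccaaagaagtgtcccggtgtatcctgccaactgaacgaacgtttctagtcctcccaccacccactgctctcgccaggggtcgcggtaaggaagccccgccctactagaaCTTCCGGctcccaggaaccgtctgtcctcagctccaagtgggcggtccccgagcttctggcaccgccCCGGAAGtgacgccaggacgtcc

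Of the 11 SR protein genes 10 were tested, and 8 rose and 1 fell in both genotypes, with a median log2 fold change of 0.86 in Cre-only cells and 0.85 in Runx1 c-k/o cells. Srsf2, whose protein binds exonic enhancers and is required for genome stability, rose most. Its normalized CPM was 37.0, 37.7 and 39.7 in resting and 116, 119 and 119 in activated Cre-only cells, and 39.5, 44.8 and 36.4 in resting and 130.3, 95.9 and 123 in activated Runx1 c-k/o cells. The groups did not overlap, and the log2 fold changes were 1.63 (SE 0.12, edgeR adjusted p = 1.15e-07) and 1.53 (SE 0.12, edgeR adjusted p = 2.20e-07). Of the exons of Srsf2, 9.90% overlap those of Mfsd11 on the other strand. Srsf7 rose by 1.41 and 1.34 on the log2 scale in the 2 genotypes, Srsf9 by 1.08 and 1.16, Srsf10 by 0.91 and 0.91, and Srsf6 by 0.80 and 0.79.

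Srsf1, the founding member of the SR family, was at 305, 323 and 346 normalized CPM in resting and 747, 823 and 769 in activated Cre-only cells. The Runx1 c-k/o values were 301, 324 and 275 at rest and 801, 649.5 and 736 at 3 h, so that every activated sample was above every resting sample. The log2 fold change was 1.26 (SE 0.11, edgeR adjusted p = 4.23e-07) and 1.28 (SE 0.11, edgeR adjusted p = 4.55e-07). Srsf3, the shortest SR protein, which also takes part in mRNA export, went from 363, 355 and 366 to 527, 553 and 545 in Cre-only cells and from 378, 388 and 346 to 745, 514 and 517 in Runx1 c-k/o cells. Its rise was smaller, at 0.58 (SE 0.13, edgeR adjusted p = 0.00147) and 0.68 (SE 0.13, edgeR adjusted p = 5.10e-04), and with 1 RUVs factor in edgeR it was 0.11 (adjusted p = 0.362) and 0.16 (adjusted p = 0.197). Replicate 1 of the activated Runx1 c-k/o cells stood above both others for Srsf3.

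Srsf5, whose promoter is shown above and which is known as an early gene of the insulin response in liver, moved the other way. It was at 897, 890.4 and 845 normalized CPM in resting and 571, 559 and 565 in activated Cre-only cells, and at 908, 904 and 888 in resting and 571, 532 and 544 in activated Runx1 c-k/o cells. Every activated sample was below every resting one. The log2 fold change was -0.64 (SE 0.0806, edgeR adjusted p = 1.40e-05) and -0.71 (SE 0.0807, edgeR adjusted p = 5.54e-06), and the call held in all 23 alternatives in both genotypes. Per kb of exon Srsf5 was the most abundant SR protein gene in resting Cre-only cells, at 220.0 CPM per kb, and at 3 h it was at 142, below Srsf7 (200.1) and Srsf6 (174). Srsf11 rose by 0.32 (edgeR adjusted p = 0.00637) and 0.23 (edgeR adjusted p = 0.037) on the log2 scale. This call was made in 21 of 23 alternatives in Cre-only cells but only in 11 of 23 in Runx1 c-k/o cells. Srsf4 was not called, with log2 values of 0.18 (95% interval -0.05 to 0.41) and 0.11 (-0.12 to 0.35), and 43.3% of its exon length overlaps Gm12992 on the other strand. It was called higher with 1 RUVs factor in edgeR (0.60, adjusted p = 4.86e-04, and 0.53, adjusted p = 0.0014), without both libraries that stand apart (0.14, adjusted p = 0.0487, and 0.18, adjusted p = 0.0396) and, in Runx1 c-k/o cells, without 3 h replicate 1 of that genotype (0.24, adjusted p = 0.0227), but was at -0.08 and -0.09 with upper-quartile factors.

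All 20 hnRNP genes were tested, and 15 rose and 3 fell in Cre-only cells, 16 rose and 3 fell in Runx1 c-k/o cells, with medians of 0.64 and 0.74. Hnrnpab, which encodes an RNA- and DNA-binding protein of the A/B type, rose most. Its normalized CPM was 136, 144 and 142 at rest and 464, 508 and 496 at 3 h in Cre-only cells, and 137, 213 and 133 in resting and 703, 513 and 505 in activated Runx1 c-k/o cells. Its log2 fold changes were 1.796 (SE 0.18, edgeR adjusted p = 1.94e-06) and 1.83 (SE 0.18, edgeR adjusted p = 1.80e-06), with no overlap between times. Of its exon length 26.9% overlaps Phykpl on the other strand.

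Hnrnpu, whose protein binds nascent RNA and the nuclear scaffold, rose by 1.29 and 1.20 on the log2 scale. Hnrnpf, which binds runs of G and whose promoter is also shown above, rose by 1.08 and 0.98, Hnrnpc, which binds runs of U, by 0.99 and 1.00, and Hnrnpd, which binds AU-rich elements, by 0.90 and 0.98. Hnrnpr, Hnrnpm, Hnrnpa3, Hnrnpa2b1 and Hnrnpdl rose by 0.56 to 0.97 over both genotypes, and Hnrnpa0 by 0.60 and 0.77. Of the exon length of Hnrnpm 24.8% overlaps Marchf2 on the same strand, so its level is uncertain. The smallest called rises were those of Hnrnpl (0.41 and 0.40), Hnrnpk (0.34 and 0.38) and Hnrnpul2 (0.30 and 0.19).

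Hnrnpa1, a splicing repressor that antagonizes Srsf1 at many exons, was at 388, 378 and 372 normalized CPM in resting and 618, 572 and 604 in activated Cre-only cells. In Runx1 c-k/o cells the values were 365, 415 and 350.2 at rest and 643, 581 and 619 at 3 h. The times did not overlap, and the log2 fold changes were 0.65 (SE 0.0916, edgeR adjusted p = 3.28e-05) and 0.71 (SE 0.0917, edgeR adjusted p = 1.81e-05). Per kb of exon it had the highest level of all members in each of the 4 groups. Hnrnpa1 has near-identical pseudogenes, and its level depends on how reads with several alignments were counted, which is not given in the sources used here.

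Hnrnph1, Hnrnph3 and Hnrnpul1 fell. Hnrnph1, a G-run binding protein, was at 735, 749.7 and 841 normalized CPM in resting and 602, 617 and 599 in activated Cre-only cells, and at 849, 634 and 743 in resting and 540.1, 551 and 636 in activated Runx1 c-k/o cells, where 1 activated sample lay just above the lowest resting one. Its log2 fold changes were -0.36 (SE 0.12, edgeR adjusted p = 0.0155) and -0.37 (SE 0.12, edgeR adjusted p = 0.0135). Without Cre-only 0 h replicate 3 the Cre-only value was -0.29 (adjusted p = 0.0729) and without Cre-only 3 h replicate 3 it was -0.34 (adjusted p = 0.0514), and with 1 RUVs factor it was -0.12 in edgeR (adjusted p = 0.462) and -0.23 in DESeq2 (adjusted p = 0.194). Its paralog Hnrnph2 was not called, at 0.19 (95% interval 0.03 to 0.34) and 0.07 (-0.09 to 0.23). Its Cre-only value was called higher in 5 of 23 alternatives, among them the one without both libraries that stand apart (0.14, adjusted p = 0.028). The difference between the paralogs was not tested.

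Hnrnpul1, a protein of the hnRNP U type, was at 291, 294 and 279 normalized CPM in resting and 243, 236 and 242 in activated Cre-only cells, and at 280.1, 269 and 281 in resting and 185, 239 and 241 in activated Runx1 c-k/o cells. Its fall was the smallest of the 5, at -0.26 (SE 0.10, edgeR adjusted p = 0.0313) and -0.32 (SE 0.10, edgeR adjusted p = 0.0117). In Cre-only cells this call was lost when any 1 of the 6 Cre-only samples was left out (adjusted p from 0.0539 to 0.0954) and with a replicate block within genotype (-0.26, adjusted p = 0.0741). Hnrnph3 was at 6.60, 7.74 and 11.3 in resting and 4.62, 4.90 and 5.48 in activated Cre-only cells, and at 10.1, 7.50 and 8.10 in resting and 5.09, 4.66 and 5.12 in activated Runx1 c-k/o cells. Its log2 fold changes were -0.77 (SE 0.20, edgeR adjusted p = 0.00324) and -0.79 (SE 0.20, edgeR adjusted p = 0.00317). With 1 RUVs factor in edgeR the fall was not called (adjusted p = 0.0907 and 0.0996). Its counts, 71 to 183 per sample, are uncertain, because 75.5% of its exon length overlaps Rufy2 on the other strand and the strand setting of the counting is not given in the sources used here.

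In the U2AF family the subunits of the canonical heterodimer rose. U2af1, the small subunit that contacts the AG of the 3' splice site, was at 81.2, 81.3 and 78.5 normalized CPM in resting and 172, 180.4 and 175 in activated Cre-only cells, and at 83.9, 119.6 and 84.1 in resting and 271, 168 and 167 in activated Runx1 c-k/o cells. U2af2, the large subunit that binds the polypyrimidine tract, was at 306, 304 and 290.2 in resting and 518, 501 and 505 in activated Cre-only cells and at 309, 365 and 281 in resting and 631, 508 and 517 in activated Runx1 c-k/o cells. The times did not overlap for either gene. The log2 fold changes of U2af1 were 1.13 (SE 0.18, edgeR adjusted p = 1.15e-04) and 1.07 (SE 0.18, edgeR adjusted p = 1.78e-04), and those of U2af2 0.76 (SE 0.11, edgeR adjusted p = 5.97e-05) and 0.79 (SE 0.11, edgeR adjusted p = 4.27e-05). With 1 RUVs factor the rise of U2af1 was 0.37 in edgeR (adjusted p = 0.00329) and 0.26 in DESeq2 (adjusted p = 0.0146) in Cre-only cells, and 0.26 (adjusted p = 0.026) and 0.20 (adjusted p = 0.078) in Runx1 c-k/o cells. U2af1l4, a relative of U2af1, was at 22.2 to 27.2 CPM in all samples, with log2 fold changes of -0.02 (95% interval -0.22 to 0.17) and -0.02 (-0.22 to 0.18); 41.7% of its exon length overlaps other genes. With upper-quartile factors it was called lower in Cre-only cells (-0.29, adjusted p = 0.0179).

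Of the 9 SF3a and SF3b genes 8 rose and 1, Sf3b1, fell in both genotypes. Sf3b1 encodes the subunit that clamps the branch point and is often mutated in myeloid and lymphoid neoplasms. Its normalized CPM was 1012, 1046 and 1031 in resting and 693, 741 and 715 in activated Cre-only cells, and 1084, 899 and 1016 in resting and 621, 616 and 677 in activated Runx1 c-k/o cells. All activated samples lay below all resting ones. The log2 fold changes were -0.52 (SE 0.0952, edgeR adjusted p = 2.90e-04) and -0.65 (SE 0.0954, edgeR adjusted p = 5.23e-05), and the call held in all 23 alternatives in each genotype, from -0.79 to -0.40 and from -0.86 to -0.52.

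Sf3b3, the WD40-repeat subunit that sits beside Sf3b1, rose most in this complex. It was at 269, 274 and 268 normalized CPM in resting and 770.2, 775 and 784 in activated Cre-only cells, and at 265, 318 and 262 in resting and 728, 702 and 796 in activated Runx1 c-k/o cells. Its log2 fold changes were 1.52 (SE 0.0980, edgeR adjusted p = 5.56e-08) and 1.40 (SE 0.0977, edgeR adjusted p = 1.22e-07), with no overlap between times. Per kb of exon Sf3b1 was above Sf3b3 in resting Cre-only cells (166 and 59.4 CPM per kb) and below it at 3 h (116 and 171), and the order changed in the same way in Runx1 c-k/o cells (161 and 61.8 at rest, 103 and 163 at 3 h). The 3 subunits of SF3a rose by 1.06 to 1.42 over both genotypes. Sf3b4, Sf3b5 and Sf3b6, the last being the protein that contacts the branch-point adenosine, rose by 0.78 to 0.99, and Sf3b2 by 0.41 and 0.43.

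The 11 tested Snrp genes all rose in both genotypes, with medians of 1.20 in Cre-only cells and 1.30 in Runx1 c-k/o cells. Snrpd1 and Snrpd3, which encode Sm ring proteins, rose most in Cre-only cells. Snrpd1 was at 33.4, 34.4 and 31.4 normalized CPM in resting and 110.5, 119 and 116 in activated Cre-only cells, and at 32.6, 55.9 and 30.9 in resting and 199, 118 and 112 in activated Runx1 c-k/o cells. Snrpd3 was at 43.3, 42.1 and 40.04 in resting and 141, 149.5 and 143 in activated Cre-only cells and at 45.5, 74.8 and 45.1 in resting and 223, 145 and 144 in activated Runx1 c-k/o cells. For both genes the times did not overlap, and the highest Runx1 c-k/o values were those of the libraries that stand apart. The log2 fold changes of Snrpd1 were 1.802 (SE 0.24, edgeR adjusted p = 2.36e-05) and 1.85 (SE 0.24, edgeR adjusted p = 1.96e-05), and those of Snrpd3 1.79 (SE 0.21, edgeR adjusted p = 5.96e-06) and 1.63 (SE 0.20, edgeR adjusted p = 1.34e-05).

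Snrpa1, which encodes the U2 protein A', was at 35.3, 35.5 and 34.5 normalized CPM in resting and 105, 110.2 and 107 in activated Cre-only cells, and at 32.6, 48.2 and 34.4 in resting and 178, 107 and 106 in activated Runx1 c-k/o cells. Its log2 fold changes were 1.61 (SE 0.19, edgeR adjusted p = 9.20e-06) and 1.77 (SE 0.20, edgeR adjusted p = 4.69e-06). Snrpf, a further Sm gene, was at 15.6, 15.9 and 15.1 in resting and 40.2, 39.9 and 44.8 in activated Cre-only cells and at 10.6, 16.3 and 11.7 in resting and 61.2, 34.0 and 35.8 in activated Runx1 c-k/o cells. Its log2 fold changes were 1.42 (SE 0.21, edgeR adjusted p = 5.90e-05) and 1.76 (SE 0.22, edgeR adjusted p = 1.17e-05). The activated samples were above the resting samples for both genes. The level of Snrpf is uncertain, since 85.4% of its exon length overlaps Ccdc38 and 4933408J17Rik on the other strand.

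The U1 genes Snrpa, whose promoter is shown above, and Snrpc rose by 1.34 and 1.30 and by 0.57 and 0.75. Snrpb2, a U2 protein, rose by 0.77 and 0.94, and the Sm genes Snrpb, Snrpd2, Snrpe and Snrpg by 0.68 to 1.34 over both genotypes. Among the families the median of the Snrp genes moved most with 1 RUVs factor in edgeR: the median of the 11 genes was 0.42 in Cre-only cells and 0.52 in Runx1 c-k/o cells, and 6 of 11 were called in each. With this factor in DESeq2, Snrpg was called lower in Cre-only cells (log2 fold change -0.37, adjusted p = 0.0135). Snrpn, an imprinted gene known mainly from brain, was at 0.145, 0 and 0.186 normalized CPM in resting and 0, 0 and 0.0637 in activated Cre-only cells and at 0.117, 0.388 and 0.133 in resting and 0.0644, 0.131 and 0 in activated Runx1 c-k/o cells. Its 0 to 6 counts per sample do not allow a comparison.

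The levels spanned a wide range. Per kb of the union of annotated exons, the highest members in resting Cre-only cells were Hnrnpa1 at 337, Hnrnpk at 237, Srsf5 at 220.0 and Hnrnpa2b1 at 219 CPM per kb, the last pair being within 1 SD of each other. The lowest tested members were Snrpc at 6.17, Hnrnph3 at 2.72 and Hnrnpll at 0.452. After 3 h in Cre-only cells the order was Hnrnpa1 (531), Hnrnpa2b1 (354), Hnrnpf (301), Hnrnpk (299.6) and Snrpd3 (239), where Hnrnpf and Hnrnpk did not differ beyond their spread. Members with many annotated isoforms can have a longer exon union, and so a lower value per kb.

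The change on activation was similar in both genotypes, which share no samples in these comparisons. All 49 members called in Cre-only cells were called in the same direction in Runx1 c-k/o cells (100% of the first list and 98.0% of the 50 of the second), and Hnrnpll was the one member called in Runx1 c-k/o cells alone. Across the 53 members Pearson's r between the log2 fold changes was 0.94, and 0.99 without Hnrnpll, as a description over genes that are not independent. Neither the shared calls nor r was computed over all tested genes, most of which were also called on activation in each genotype. Whether the members agree more between genotypes than other expressed genes do was therefore not tested. Apart from Hnrnpll, the largest difference between genotypes in the log2 change was 0.34, for Snrpf. Hnrnph2, Srsf4 and U2af1l4 were called in neither genotype, with the exceptions over the alternatives given above.

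**Figure D3:**
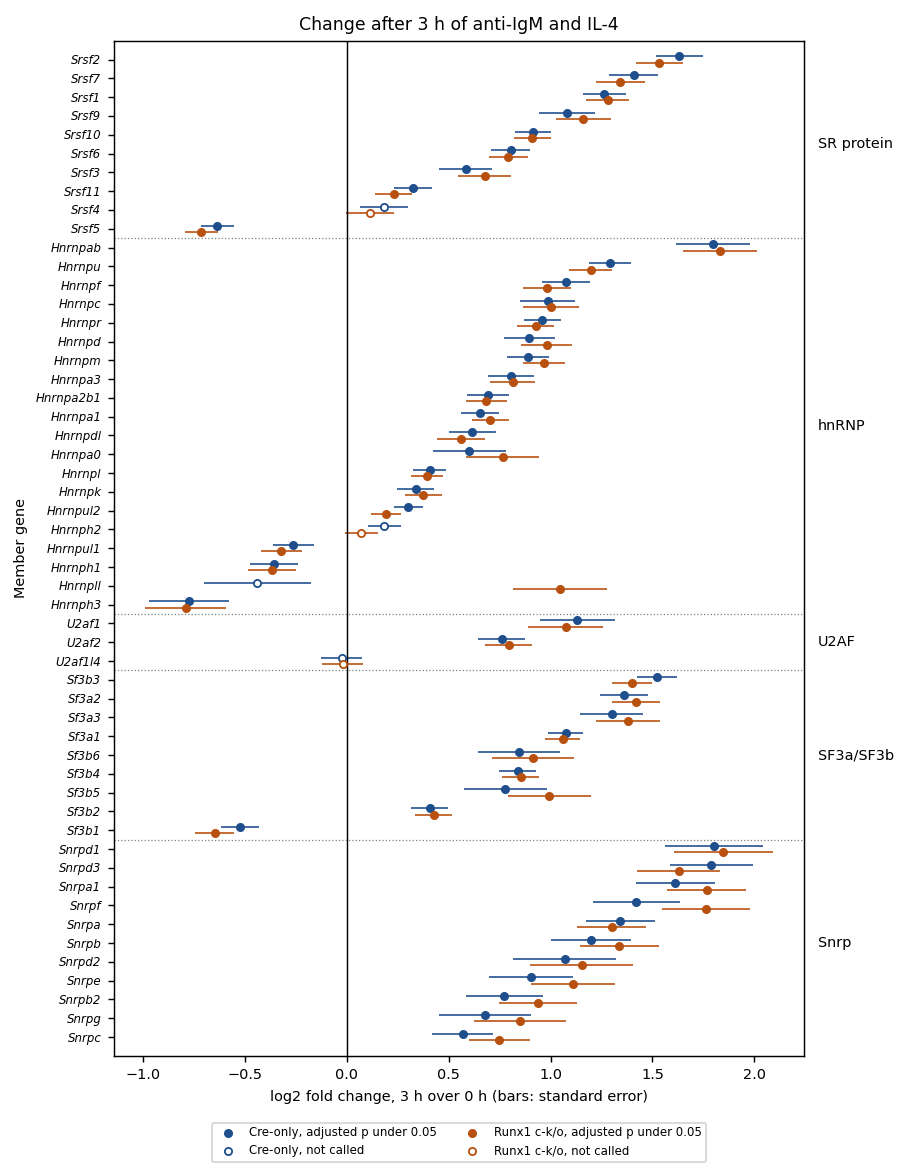
Log2 fold change at 3 h over 0 h for the 53 tested members in Cre-only cells and Runx1 c-k/o cells, with bars for the standard error and filled points for an adjusted p under 0.05. The pairs of points lie close together except for Hnrnpll, at -0.44 in Cre-only samples and 1.05 in Runx1 c-k/o samples.

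The comparison of genotypes asked whether loss of Runx1 alters the level of these genes at rest or after 3 h. At rest no member was called by edgeR (0 of 53, where 0.731% of all genes were higher and 0.761% lower), none had a p under 0.05 before adjustment, and DESeq2's Wald test called 0. The median log2 difference, Runx1 c-k/o over Cre-only, was 0.07 (all genes 0.03) and ran from -0.27 for Snrpf to 0.40 for Snrpd3, with 42 of 53 values above 0. The 3 samples of one genotype lay apart from the 3 of the other in 5 members that were higher in Runx1 c-k/o cells (9.43%) and 2 that were lower (3.77%), against 12% and 11.6% of all genes. They were Snrpd3, Snrpa, Hnrnpll, Hnrnpa0 and U2af1 among the higher and Srsf4 and Hnrnpul2 among the lower. The smallest p-values were those of Snrpd3, Snrpa and Hnrnpa0. Snrpd3, with the values given above, differed by 0.40 (SE 0.20, edgeR adjusted p = 0.513). Snrpa was at 40.8, 41.5 and 37.5 normalized CPM in Cre-only cells at rest against 44.9, 63.2 and 42.5 in Runx1 c-k/o samples, a difference of 0.33 (SE 0.17, edgeR adjusted p = 0.523). Hnrnpa0 was at 178, 178 and 189 and 197, 258 and 202, a difference of 0.27 (SE 0.18, edgeR adjusted p = 0.627). In all 3 genes the Runx1 c-k/o samples were above the Cre-only samples and replicate 2 was the highest. Without both libraries that stand apart the differences were 0.12 for Snrpd3 (adjusted p = 0.377), 0.13 for Snrpa (adjusted p = 0.368) and 0.14 for Hnrnpa0 (adjusted p = 0.579). That of U2af1 was 0.25 with all libraries and 0.07 without both. The genotypes then lay apart in 5 higher members (9.43%) and 12 lower ones (22.6%), against 16.4% and 18.7% of all genes.

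Without both libraries that stand apart, a choice made after the data were seen, the median difference at rest was -0.01 and Snrpf was called lower in Runx1 c-k/o cells (log2 difference -0.48, adjusted p = 0.00616). Snrpf was also called with 1 RUVs factor, at -0.43 in edgeR (adjusted p = 0.00998) and -0.44 in DESeq2 (adjusted p = 0.00395). With all libraries its difference was -0.27 (SE 0.22, adjusted p = 0.673), with resting values of 15.6, 15.9 and 15.1 in Cre-only samples and 10.6, 16.3 and 11.7 in Runx1 c-k/o samples, of which only replicate 2 was not below the Cre-only samples. The overlap of its exons with other genes applies here too.

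After 3 h 1 of 53 members, Hnrnpll, was higher in Runx1 c-k/o cells and none was lower, where 1.47% of all genes were higher and 1.3% lower. Without adjustment 2 members had a p under 0.05, Hnrnpll and Hnrnpa0. Hnrnpa0 was at 231, 287 and 308 normalized CPM in Cre-only samples against 489.7, 327 and 301 in Runx1 c-k/o samples, which overlap and of which Runx1 c-k/o replicate 1 was the highest, a difference of 0.44 (SE 0.18, unadjusted p = 0.0309, edgeR adjusted p = 0.257), and of 0.21 without both libraries that stand apart (adjusted p = 0.242). The median difference was 0.08 (all genes 0.01) and the members other than Hnrnpll ran from -0.19 for Srsf4 to 0.46 for Snrpg. Without both libraries that stand apart Srsf4 was at -0.02 and Snrpg at 0.12. The samples of the genotypes lay apart in 6 members higher in Runx1 c-k/o cells (11.3%) and 2 lower (3.77%), against 9.5% and 12.3% of all genes. These were Hnrnpll, Sf3b5 (0.43), Snrpd2 (0.42), Snrpb (0.33), Snrpa (0.29) and Sf3b4 (0.09) among the higher, and Sf3b1 (-0.17) and Hnrnpul2 (-0.15) among the lower. Without both libraries the genotypes lay apart in 6 higher members (11.3%) and 11 lower ones (20.8%), against 14.9% and 19% of all genes, and the values of Sf3b5, Snrpd2, Snrpb and Snrpa were 0.15, 0.09, 0.10 and 0.10. The Snrp genes had a median of 0.29 at 3 h and 0.19 at rest, and 0.07 and -0.02 without both libraries that stand apart. In these libraries all 11 tested Snrp genes were the highest of the 3 replicates, and 45 of the 53 members at 3 h and 44 at rest lay above the mean of the other libraries of the group. The deviation of a library from the others of its group fell with exon length across the 53 members, with Spearman's rho of -0.725 for Runx1 c-k/o 0 h replicate 2 and -0.672 for Runx1 c-k/o 3 h replicate 1, and of -0.323 and -0.4 across 13514 genes. The difference between genotypes also fell with exon length over the members, with rho of -0.598 at rest and -0.642 at 3 h, and -0.0325 and -0.406 without both libraries.

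**Figure D4:**
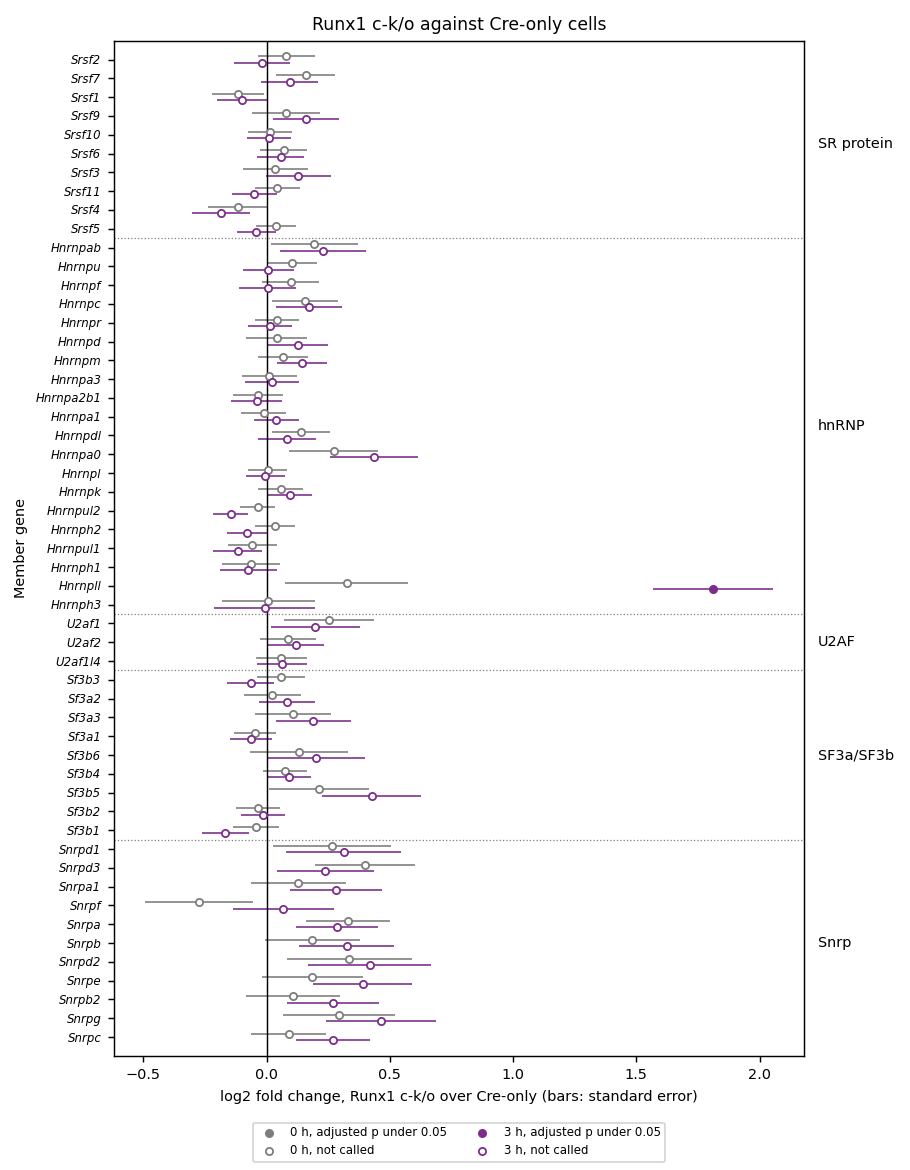
Log2 difference, Runx1 c-k/o over Cre-only, for the 53 tested members at 0 h and 3 h, with bars for the standard error and a filled point for an adjusted p under 0.05. Hnrnpll at 3 h (1.81) is the only filled point, and the Snrp genes lie mostly above 0 at both times.

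Hnrnpll encodes hnRNP L-like, which is known to promote skipping of the variable exons of CD45 in activated T cells and in plasma cells. In mm9 the gene occupies bases 80428827 to 80461674 of chromosome 17, minus strand, and its exons overlap no other gene. Its normalized CPM was 1.49, 1.31 and 1.43 in resting and 1.21, 0.784 and 1.08 in activated Cre-only cells, and 1.52, 1.68 and 2.12 in resting and 3.73, 4.53 and 2.77 in activated Runx1 c-k/o cells. All 3 activated Runx1 c-k/o samples exceeded the 9 others, and the activated Cre-only samples were the lowest 3 of the 12. The underlying counts were 58, 69 and 47 in activated Runx1 c-k/o cells and 28, 12 and 17 in activated Cre-only cells. At 3 h the difference between genotypes was 1.81 on the log2 scale (SE 0.24, edgeR adjusted p = 0.00145), a 3.51-fold higher level, and at rest it was 0.32 (SE 0.25, edgeR adjusted p = 0.663). The difference at 3 h was called in all 22 alternatives, with log2 values from 1.63 to 1.98 and adjusted p from 4.76e-07 to 0.0296, including the one without both libraries that stand apart.

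On activation Hnrnpll rose by 1.05 in Runx1 c-k/o cells (SE 0.23, edgeR adjusted p = 0.00121), a call made in 22 of 23 alternatives and lost with 1 RUVs factor in DESeq2 (1.07, adjusted p = 0.0765). In Cre-only cells its log2 change was -0.44 (SE 0.26, edgeR adjusted p = 0.146), and with upper-quartile factors -0.70 (adjusted p = 0.0333). Its paralog Hnrnpl, which also represses CD45 exons, was far more abundant, at 254, 261 and 254 normalized CPM in resting and 349.7, 333 and 337 in activated Cre-only cells and at 251, 279 and 242 in resting and 345, 332 and 339 in activated Runx1 c-k/o cells. Hnrnpl differed between genotypes by -0.01 at 3 h (95% interval -0.16 to 0.15). Per kb of exon Hnrnpll was at 1.18 and Hnrnpl at 56.9 CPM per kb in activated Runx1 c-k/o cells.

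**Figure D5:**
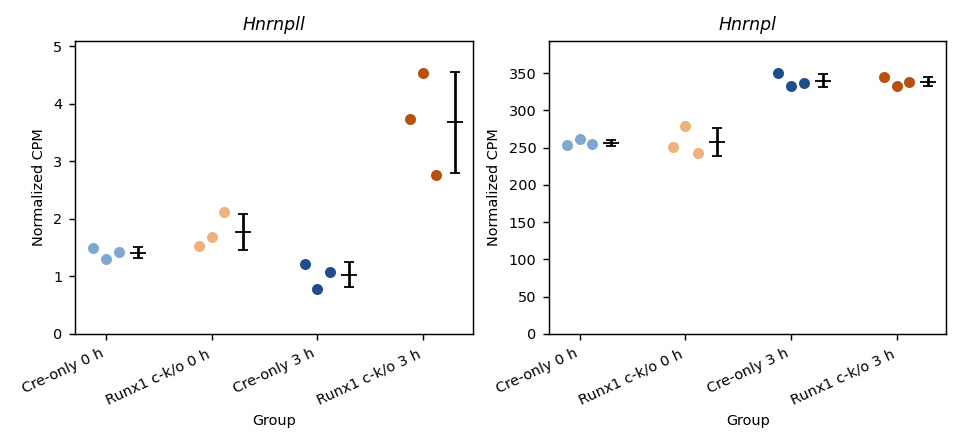
Normalized CPM of Hnrnpll and Hnrnpl in each sample of the 4 groups, with the mean and SD of 3 beside the points. The activated Runx1 c-k/o samples stand above all others for Hnrnpll, while both genotypes reach the same range at 3 h for Hnrnpl.

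The difference between the changes on activation in the 2 genotypes was tested as an interaction, and no member was called by edgeR (0 of 53, where 0.0665% of all genes were called higher and 0.0148% lower). Without adjustment 1, Hnrnpll, had a p under 0.05, and DESeq2's Wald test called 0. For Hnrnpll the interaction was 1.49 (SE 0.35, unadjusted p = 0.00107, edgeR adjusted p = 0.244), from 1.31 to 1.66 over the alternatives with adjusted p from 0.0648 to 0.757. The next smallest p-values were those of Snrpf (0.34, SE 0.30, edgeR adjusted p = 0.999) and Hnrnpul2 (-0.11, SE 0.10, edgeR adjusted p = 0.999). Hnrnpul2 was at 328, 325 and 331 normalized CPM in resting and 399, 403 and 413 in activated Cre-only cells, and at 325, 318 and 318 in resting and 359.9, 367 and 371 in activated Runx1 c-k/o cells, with each Runx1 c-k/o group below the Cre-only group of the same time.

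Among 169 tested genes of the wider splicing machinery that the symbol rule leaves out, in 7 lists, 121 rose and 19 fell in Cre-only cells and 121 rose and 22 fell in Runx1 c-k/o cells, with medians of 0.63 and 0.61. Of all tested genes 38.6% were higher and 36.4% lower in Cre-only cells. In Runx1 c-k/o cells 37.7% were higher and 36.6% lower. The counts of each list below are to be read beside these shares, and no list was tested as a set. By edgeR 0 were called between genotypes at rest, at 3 h or for the interaction, with 2, 13 and 0 at a p under 0.05 before adjustment, and the Wald test of DESeq2 called 0, 1 and 0. How many of all tested genes had a p under 0.05 before adjustment was not counted. The factors that assemble snRNPs rose most often: 15 of 16 in Cre-only cells and 16 of 16 in Runx1 c-k/o cells, with medians of 1.27 and 1.36. They were led in Cre-only cells by Gemin5, which recognizes snRNAs (log2 fold change 2.79, SE 0.17, edgeR adjusted p = 4.74e-08), and by Prmt5, which methylates Sm proteins (2.39, SE 0.15, edgeR adjusted p = 4.59e-08), while Gemin5 (2.50) and Gemin6 (2.22) led in Runx1 c-k/o cells. Of 12 LSm genes, several of which encode proteins of the ring on U6 RNA, 10 and 11 rose. Lsm2 (2.09) and Lsm11 (1.94), the latter not a part of the U6 ring, led in Cre-only cells, and Lsm2 (1.94) and Lsm7 (1.68) in Runx1 c-k/o cells. Of 26 other proteins of the U5, U4/U6 and U1 particles 24 and 22 rose, led by Prpf31 (2.18 and 2.07) and Txnl4a (1.78 and 1.71), and 1, Snrnp25 of the minor spliceosome, fell (-0.68 and -0.55).

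Of 42 catalytic and helicase factors 30 rose and 2 fell in Cre-only cells, while Runx1 c-k/o cells had 31 and 2. Prpf19 (1.44 in both genotypes), Aqr (1.35 in Cre-only cells) and Rbm17 (1.40 in Runx1 c-k/o cells) led the rises, and Syf2 (-0.43 and -0.34) and Sf1, the branch-point binding protein (-0.33 and -0.28), fell. The kinases of SR proteins and their partners were split, with 5 of 11 higher and 6 lower in each genotype. Srpk1 (1.24 and 1.21) and Ppig (1.35 and 1.10) rose, while Srpk3 (-4.09 and -3.87) and Clk1 (-1.45 and -1.59), both kinases of SR proteins, fell. Of 44 other regulators of alternative splicing 27 rose and 7 fell in Cre-only cells, while Runx1 c-k/o cells had 27 and 10. Syncrip, also called hnRNP Q (2.12 in Cre-only cells), and Tardbp, which encodes TDP-43 (1.49 and 1.44), rose most. Esrp2 (-1.36) and Celf2 (-1.23) fell most in Cre-only cells and Cirbp (-1.15) and Celf2 (-0.90) in Runx1 c-k/o cells. Of 18 genes of the exon junction complex and nonsense-mediated decay 10 rose and 3 fell in Cre-only cells, while Runx1 c-k/o cells had 9 and 3. The exon junction genes Rbm8a (1.18 and 1.24), Eif4a3 (1.16, Cre-only) and Magohb (1.31, Runx1 c-k/o) were higher, and the decay factors Upf3b (-0.82 and -0.92) and Dhx34 (-0.79 and -0.79) lower. All named values are log2 fold changes with an edgeR adjusted p under 0.05.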

How the data were processed

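RNA of 12 samples was sequenced from stranded, poly(A)-selected paired-end libraries. The authors deposited 1 table of raw counts per Ensembl gene and sample, and the submitters' processing notes name CASAVA 1.8.4, TopHat2 2.0.11, featureCounts and mm9. The strand setting and the treatment of reads with several alignments are not given in the sources used here, so overlapping and near-identical genes are uncertain. Groups were taken from the sample labels.

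Gene identifiers were matched to GENCODE vM1. Counts were analysed in R 4.3.3 with edgeR 4.0.16: filterByExpr with a minimum count of 10 left 13538 of 37991 genes, TMM factors scaled the libraries, and a robust quasi-likelihood model with a term for each of the 4 groups was fitted to all 12 samples. Each of 5 comparisons was adjusted by the Benjamini-Hochberg method over all tested genes, with a threshold of 0.05. Normalized CPM are counts per 1000000 of the TMM-scaled library. Standard errors come from the fold change and the test statistic, and 95% intervals are 1.96 SE on either side. These intervals are approximate and narrower than the quasi-likelihood test implies. That of Snrpd3 between genotypes at rest, for example, ran from 0.002 to 0.795 with an edgeR unadjusted p of 0.072. An exact permutation test of 3 against 3 samples cannot go below p = 0.1 and was not used. CPM per kb use the union of annotated exons. The floor of 3 counts covers counting error only.

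The members and the gene lists were chosen with earlier results of these data known. Members are named with the value in every sample if they were among the 6 higher and 6 lower with the largest change on activation among called members whose times did not overlap, if they were called in a genotype comparison or the interaction or, where none was called, had 1 of the 3 smallest p-values, or if they were Srsf1, Srsf3, Hnrnpa1, Hnrnpll, Sf3b1, U2af1, U2af2 or Snrpn. From each other list the 2 higher and 2 lower called genes with the largest change are named. Hnrnpl, as the paralog of Hnrnpll, and Hnrnpa0 at 3 h were added after their values were seen.

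Alternatives were DESeq2 1.42.0 size factors and Wald test, upper-quartile factors, no filter or at least 10 counts in every sample, 1 RUVs factor (estimated from replicate differences) in edgeR or DESeq2, only the groups compared, replicate blocks, and each sample left out in turn. The study itself used DESeq2 with factors of unwanted variation, without stating their number or the control genes. Of these alternatives, 1 RUVs factor in DESeq2 is the nearest to that. Leaving out both libraries that stand apart was added after the data were seen. The fits were also run on simulated counts in which a small set of genes was changed in activated Cre-only samples only. These counts held no broad shift across genes and no library that stands apart. They therefore do not bear on the scaling or on those libraries. Samples with the same number correlated in their deviations from the group means between 0 h and 3 h of Cre-only cells (r = 0.276, 0.176 and 0.144) but not of Runx1 c-k/o cells (-0.254, -0.264 and 0.254) or between genotypes (-0.0665 to 0.068). Figures were drawn with matplotlib 3.10.9.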

Additional observations from a re-analysis of the deposited data

Results flagged for a closer look

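The change of Hnrnpll on activation went in opposite directions in the 2 genotypes: its log2 fold change was -0.44 in Cre-only cells (SE 0.26, edgeR adjusted p = 0.146), where all 3 activated samples were below all 3 resting ones, and 1.05 in Runx1 c-k/o cells (SE 0.23, edgeR adjusted p = 0.00121), where all 3 were above. The test of the difference itself, the interaction, gave 1.49 (SE 0.35) with an unadjusted p of 0.00107 and an edgeR adjusted p of 0.244, so it did not pass the threshold. The counts were 12 to 69 per sample.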

How the results depend on the processing

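The number of members called on activation was 35 to 51 over 23 alternatives in Cre-only cells (49 as reported) and 33 to 51 in Runx1 c-k/o cells (50 as reported), the lowest, 33, being with 1 RUVs factor in DESeq2. With each sample left out in turn it was 46 to 50 and 48 to 51. Of the 44 and 45 higher calls 29 and 29 held in every alternative, and of the 5 lower calls 2 in each, those of Sf3b1 and Srsf5. The median log2 fold change was 0.32 to 0.85 and 0.45 to 1.05. Of the higher calls 8 in Cre-only cells and 4 in Runx1 c-k/o cells changed sign in some alternative, all with 1 RUVs factor except Hnrnpul2 (upper-quartile factors), and Snrpg was called lower in Cre-only cells. Of the lower calls Hnrnpul1 changed sign with 1 RUVs factor in edgeR, to 0.0606 in Cre-only cells and 0.00403 in Runx1 c-k/o cells, and the factor differs between resting and activated samples; whether it removes part of the response was not tested. At rest 1 member, Snrpf, was called with 1 RUVs factor in edgeR, with 1 in DESeq2 and without both libraries that stand apart, in place of 0. At 3 h 3 members were called with 1 RUVs factor in DESeq2 (Hnrnpll, Hnrnpa0 and Snrpg) in place of 1, and the cause was not tested. Over all genes this factor in DESeq2 gave 703 higher and 527 lower at 3 h, against 199 and 176 as reported. At rest it gave 300 higher and 311 lower, against 99 and 103 as reported. With each sample left out the counts between genotypes were 0 at rest, 1 at 3 h and 0 for the interaction.

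With a replicate block across all 4 groups 49, 48, 0, 1 and 0 members were called in the 5 comparisons (activation in Cre-only cells, activation in Runx1 c-k/o cells, genotype at rest, genotype at 3 h, interaction). A block within genotype gave 48, 48 and 0 for both activations and the interaction, with Hnrnpul1 the call lost in Cre-only cells. The counts of 0 to 11 for Snrpn and Srsf12, and 12 to 69 for Hnrnpll, limit what can be said of these genes. With no filter Srsf12 was called lower in Runx1 c-k/o cells (-3.27, adjusted p = 0.0079).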
